A study of Mus musculus with 10 samples.

Results

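Jchain, Mzb1, Derl3, Xbp1, Prdm1, Irf4, Sdc1, Txndc5, Fkbp11 and Ell2 are genes that B cells use to become plasma cells and to fold, assemble and secrete antibody. They were taken by name, and all 10 were found among the 14450 genes of the table. RNA was sequenced from mature B cells of the bone marrow of Chat-GFP mice at steady state, sorted by flow cytometry, with 5 libraries of Chat+ cells and 5 of Chat- cells. In this reporter strain green fluorescence marks cells that use Chat, the gene of the enzyme that makes acetylcholine, and every library in both groups comes from that strain. Neither the animals' age nor whether each library is from an animal of its own is stated in the labels, so p-values measure the spread between these libraries only. The question was whether mature marrow B cells that carry the reporter also carry more of the antibody-secreting programme than those that do not.

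A B cell that turns into a plasma cell swaps one set of transcription factors for another. Irf4 and Prdm1 (Blimp-1) shut down genes of B cell identity such as Pax5 and Bach2, and Xbp1 enlarges the endoplasmic reticulum (ER), where heavy and light chains are folded. Xbp1 becomes active when the ER sensor Ire1, encoded by Ern1, splices its mRNA, and the spliced protein then binds ER stress elements in the promoters of chaperone genes. Gene-level values such as these do not separate spliced from unspliced Xbp1, nor the secreted from the membrane form of IgM.

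The promoters show where such elements lie in these genes. RefSeq windows (GRCm38.p6) of 250 bases before the start were found for 9 of the 10 genes, 12 windows in all, and searched on both strands for 4 motifs. These were the ER stress element (CCAAT, 9 bases of any kind, CCACG), its second form (ATTGG, 1 base of any kind, CCACG), the unfolded protein response element (TGACGTGG) and the composite element of PU.1 and IRF4 (GGAA, 2 bases of any kind, GAAA). None of the 4 contains another. The first lay in the Derl3 window alone and the third in 1 of the 3 Txndc5 windows alone, while the other 2 motifs had no match in the 12 windows. Among all 32851 promoter windows of that length, 0.113% held the first motif, 0.0304% the second, 0.563% the third and 2.30% the fourth. A match is a run of letters and no evidence of binding. The Derl3 and Txndc5 windows are shown for their matches, which are in capitals, and the Jchain window, which has no match and hence no capitals, because Jchain varied most between Chat+ libraries. The Derl3 window is chr10:75893148-75893397 on the plus strand, with the match 156 to 138 bases before the start on the opposite strand. The Txndc5 window is chr13:38527915-38528164 on the minus strand, with the match 138 to 131 bases before the start, and the Jchain window is chr5:88527898-88528147 on the minus strand.
Derl3: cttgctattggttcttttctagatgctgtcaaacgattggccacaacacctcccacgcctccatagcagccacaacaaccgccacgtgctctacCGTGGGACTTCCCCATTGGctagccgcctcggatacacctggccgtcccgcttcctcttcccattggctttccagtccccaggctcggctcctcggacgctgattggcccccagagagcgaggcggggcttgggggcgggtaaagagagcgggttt
Txndc5: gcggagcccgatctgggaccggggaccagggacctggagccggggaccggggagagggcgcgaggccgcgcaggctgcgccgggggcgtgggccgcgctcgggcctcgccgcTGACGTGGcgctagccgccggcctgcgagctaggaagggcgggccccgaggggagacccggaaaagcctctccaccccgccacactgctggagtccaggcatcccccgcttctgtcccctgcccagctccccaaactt
Jchain: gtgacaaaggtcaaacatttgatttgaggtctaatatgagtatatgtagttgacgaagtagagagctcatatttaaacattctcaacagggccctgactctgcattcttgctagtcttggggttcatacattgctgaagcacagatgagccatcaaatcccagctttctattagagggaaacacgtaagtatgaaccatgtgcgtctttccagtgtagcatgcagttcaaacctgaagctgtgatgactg

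Levels are given as CPM, counts per 1000000 of each library's own total, with the offset of the deposited log2 values removed. Depth estimated from the value of 1 read was 21530000 to 30060000 reads per library. Chat itself, the check of the sort, was at 70.6 ± 28.9 CPM in Chat+ libraries and at 7.50 ± 7.25 CPM in Chat- libraries (SD, n = 5 each). The labelled cell type was checked on B cell genes. Cd79a, a signalling chain of the B cell receptor, was at 2029 ± 131 CPM in Chat+ and 2188 ± 85.6 CPM in Chat- libraries, and Ms4a1, the gene of CD20, was at 1716 ± 398 and 1636 ± 342 CPM (SD, n = 5 each). The library Chat- replicate 4 stood apart, with 1213 genes listed at 0 CPM (62 to 682 in the other 9 libraries), and 11.9% of its CPM in mitochondrial transcripts against 2.27% to 3.85%. Counts and values that it moves are therefore given with and without it. Of a fixed list of 10 B cell markers, 6 were lower in Chat+ by log2 fold change and 4 higher, where 57% of all genes were higher. With that library left out 9 were lower and 1 higher, where 49.6% of all genes were higher. At an unadjusted p under 0.05 (limma) 1 of the 10 was lower either way, where 1.01% and 1.97% of all genes were.

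No gene of the 10 passed the test between the groups. The test was limma on the log2 values of all 14450 genes, with Benjamini-Hochberg adjustment and a threshold of 0.05, and it called 0.00692% of all genes. Each of the 10 had an adjusted p of 0.999. The 10 genes and all lists were chosen with earlier results of these data known. Counts set beside the shares of all genes are therefore descriptions only. At an unadjusted p under 0.05, 3 of the 10 were higher in Chat+ (Jchain, Mzb1 and Derl3) and 0 were lower, where 3.49% of all genes were higher and 1.01% lower. Fold changes were above 0 for 7 of the 10, against 57% of all genes, with a median log2 fold change of 0.13 against 0.04. Without Chat- replicate 4 they were above 0 for 9 of the 10 (Sdc1 was below), against 49.6% of all genes, and the median was 0.24 against 0.00. The same 3 genes were then at an unadjusted p under 0.05, where 5.36% of all genes were higher, and 0 of the 10 passed, where 0.0415% of all genes did. With all libraries the values fell into 3 kinds. Of the product and ER genes, Jchain, Derl3, Mzb1 and Fkbp11 had higher means in Chat+, while Txndc5, also an ER gene, was of the third kind. Transcription factors had nearly equal means (Xbp1, Irf4 and Prdm1). Sdc1, Txndc5 and Ell2 differed by less than the spread between libraries. These kinds did not all hold once Chat- replicate 4 was left out. Prdm1 was then at 1.28-fold, beside 1.23-fold for Mzb1. Ell2 joined Derl3 as higher without overlap, 2 of the 10, where 2.35% of all genes were.

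**Figure D1:**
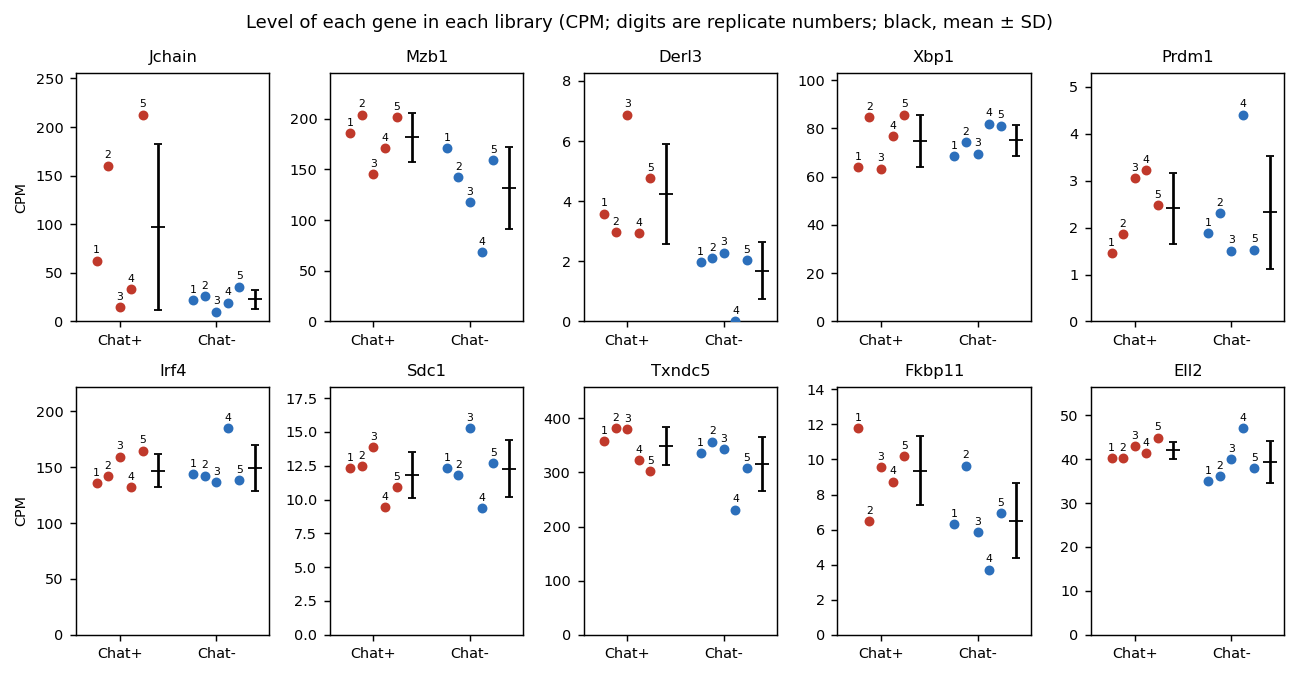
Level of each of the 10 genes in each library in CPM (vertical axes, starting at 0), with Chat+ libraries in red, Chat- libraries in blue, replicate numbers as digits and the mean ± SD in black. Jchain runs from 15.1 to 213 CPM in Chat+, the 2 groups of Derl3 do not overlap, and Chat- replicate 4 is the lowest library for Mzb1, Derl3, Fkbp11, Txndc5 and Sdc1 and the highest for Irf4, Prdm1 and Ell2.

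Jchain encodes the joining chain, the small protein that links IgM into pentamers and IgA into dimers and lets both be carried across epithelia. The gene (ENSMUSG00000067149, protein coding) is on the minus strand of chromosome 5 (GRCm38), from 88519809 to 88527891. Its level in the Chat+ libraries, replicates 1 to 5, was 62.7, 160, 15.1, 33.6 and 213 CPM. In the Chat- libraries, in the same numbering, it was 22.2, 26.1, 10.1, 19.4 and 35.8 CPM. Chat+ replicates 5 and 2 were far above every Chat- library and replicate 1 was also above them all, while replicates 3 and 4 lay within the Chat- range, so the groups overlapped. The Chat+ mean was 97.0 ± 85.6 CPM and the Chat- mean 22.7 ± 9.40 CPM (SD, n = 5 each). The fitted log2 fold change was 1.61 ± 0.62 (SE, limma, adjusted p = 0.999), a 3.05-fold difference with a 95% confidence interval of 1.19 to 7.80. It was 1.58 without Chat- replicate 4, and ranged from 1.18 without Chat+ replicate 5 to 2.13 without Chat+ replicate 3.

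Jchain had the widest spread of the 10 genes among Chat+ libraries. The highest Chat+ library was 14.1 times the lowest, and the coefficient of variation (SD as a percent of the mean) was 88.3%. For the other 9 genes the highest Chat+ library was 1.12 times (Ell2) to 2.34 times (Derl3) the lowest. In Chat- libraries the coefficient of variation of Jchain was 41.4%, below those of Derl3 (56.4%) and Prdm1 (51.8%). The labels, which give the same strain, condition and sort for the 5 Chat+ libraries, name nothing that separates them.

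The heavy chain genes whose products carry the joining chain can be set beside it. Ighm, the constant gene of IgM, was at 5996, 7299, 6287, 5977 and 8446 CPM in Chat+ replicates 1 to 5 and at 5398 to 6070 CPM in Chat-. The highest Ighm levels were thus in Chat+ replicates 5 and 2, the libraries with the most Jchain. Per 1000 CPM of Ighm, Jchain was at 10.5, 22.0, 2.41, 5.63 and 25.2 CPM in the Chat+ libraries and at 1.84 to 5.90 CPM in the Chat- libraries, so its spread exceeded that of Ighm. Igha, the constant gene of IgA, followed another pattern, with 108, 50.3, 39.8, 54.0 and 118 CPM in Chat+ and 11.3 to 73.4 CPM in Chat-. Among the class-switched IgG genes, Ighg3 was at 33.9, 20.7, 13.3, 30.3 and 42.8 CPM in Chat+ and at 4.69, 3.88, 3.19, 0 and 7.97 CPM in Chat- replicates 1 to 5, so its groups did not overlap. Its log2 fold change was 3.54 ± 0.93 (SE, limma, adjusted p = 0.42), and 2.46 ± 0.34 (limma, adjusted p = 0.033) without Chat- replicate 4. Ighg2b was at 29.6 ± 10.6 against 13.9 ± 2.33 CPM (SD, n = 5 each), a log2 fold change of 1.02 ± 0.24 (SE, limma, adjusted p = 0.30). Ighg1 reached 44.2 CPM in Chat+ replicate 5 and was at 2.40 to 15.2 CPM in the other 9 libraries. Ighg2c went the other way, with 0.728 to 5.82 CPM in Chat+ and 0.578 to 12.8 CPM in Chat-. Its log2 fold change was -0.27 ± 0.87 (SE, limma, adjusted p = 0.999), and 0.11 ± 0.87 without Chat- replicate 4. With all libraries none of the 7 measured heavy chain genes passed over all genes (limma). At an unadjusted p under 0.05 there were 3 higher (Ighg2b, Ighg3 and Igha) and 1 lower (Ighd), where 3.49% of all genes were higher and 1.01% lower. When Chat- replicate 4 was left out, the same 3 were higher and 0 lower, where 5.36% and 1.97% of all genes were. Ighd then had a log2 fold change of -0.24 ± 0.12 (SE, limma, unadjusted p = 0.06).

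**Figure D2:**
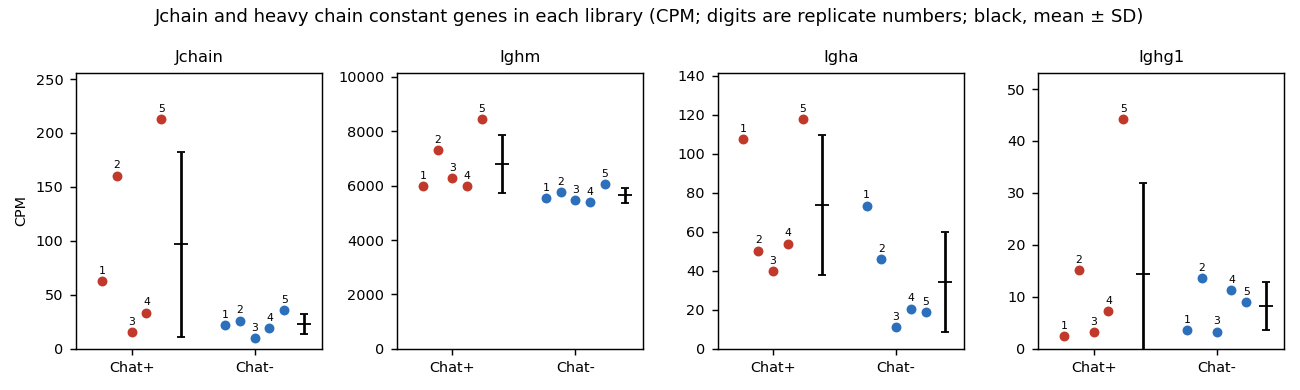
Levels of Jchain and of the heavy chain constant genes Ighm, Igha and Ighg1 in each library in CPM (vertical axes, starting at 0), with Chat+ in red, Chat- in blue, replicate numbers as digits and the mean ± SD in black. Chat+ replicate 5 is the highest library in all 4 panels, and Chat+ replicate 2 is second highest for Jchain and Ighm but not for Igha.

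Derl3 encodes a member of the derlin family, which helps move misfolded proteins out of the ER for degradation and is a target of Xbp1 in secretory cells. The gene (ENSMUSG00000009092, protein coding) is on the plus strand of chromosome 10, from 75893413 to 75895941. Its level was 3.59, 2.96, 6.88, 2.94 and 4.77 CPM in Chat+ replicates 1 to 5 and 1.97, 2.11, 2.29, 0 and 2.03 CPM in Chat- replicates 1 to 5. Every Chat+ library was above every Chat- library, the 1 such gene of the 10, where 1.12% of all genes were higher in Chat+ without overlap and 0.304% lower. These levels correspond to 72 to 189 estimated reads in Chat+ and to 50 to 65 in the Chat- libraries other than replicate 4. For replicate 4 the count of 0 allows up to 0.14 CPM (3 reads, counting error only).

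The size of the Derl3 difference rested on that library. With all libraries the log2 fold change was 1.75 ± 0.77 (SE, limma, adjusted p = 0.999), or 3.37-fold. Without Chat- replicate 4 it was 0.90 ± 0.32 (limma, adjusted p = 0.52), or 1.86-fold, with the other 4 Chat- libraries at 2.10 ± 0.138 CPM. The ratio of the group means over all libraries was 2.52. The groups did not overlap either way (2.35% of all genes were higher without overlap once Chat- replicate 4 was left out). With an offset of 1 CPM in place of the deposited one, the log2 fold change was 1.03, and with library quality weights 0.74.

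Mzb1 encodes a cochaperone of the ER that is found in marginal zone B cells, B-1 cells and plasma cells and helps assemble IgM. The gene (ENSMUSG00000024353, protein coding) is on the minus strand of chromosome 18, from 35647267 to 35649367. Its level was 186, 204, 145, 171 and 201 CPM in Chat+ replicates 1 to 5 and 171, 142, 118, 68.6 and 159 CPM in Chat- replicates 1 to 5. Of the 5 Chat+ libraries 4 were above all Chat- libraries, and replicate 3 lay within their range. The log2 fold change was 0.52 ± 0.21 (SE, limma, adjusted p = 0.999), a 1.44-fold difference with a 95% confidence interval of 1.04 to 1.98. Without Chat- replicate 4, the lowest library, it was 0.30 ± 0.13 (limma, adjusted p = 0.64), or 1.23-fold. Of the 31-base words in Mzb1 transcripts 55.1% also occur in those of SPATA24, a gene that overlaps it on the same strand, so its level could include reads of that gene or miss reads given to it.

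Fkbp11, a peptidyl-prolyl isomerase of the secretory pathway, and Txndc5, a protein disulfide isomerase that helps form disulfide bonds in the ER, are folding enzymes. Fkbp11 was at 11.8, 6.48, 9.55, 8.74 and 10.2 CPM in Chat+ and 6.29, 9.65, 5.85, 3.72 and 6.96 CPM in Chat-. The groups overlapped, with Chat+ replicate 2 near the middle of the Chat- values and Chat- replicate 2 within the Chat+ range. The log2 fold change of Fkbp11 was 0.56 ± 0.28 (SE, limma, adjusted p = 0.999), and 0.38 ± 0.23 without Chat- replicate 4. Txndc5 was at 358, 382, 379, 322 and 303 CPM in Chat+ and 336, 357, 343, 231 and 308 CPM in Chat-. The Txndc5 groups overlapped across most of their range apart from Chat- replicate 4, and the log2 fold change of 0.16 ± 0.13 became 0.05 ± 0.09 without that library. Of the 2 promoter matches among these genes, the one in Derl3 belongs to a gene with a 3.37-fold difference (1.86-fold without Chat- replicate 4) and the one in Txndc5 to a gene with a 1.12-fold difference.

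With all libraries the transcription factors that drive plasma cell fate had nearly equal means in both groups. Xbp1 was at 64.0, 84.6, 63.3, 76.8 and 85.7 CPM in Chat+ and at 68.5, 74.2, 69.5, 82.0 and 81.1 CPM in Chat-, so the Chat- range lay inside the Chat+ range. Its fold difference was 0.992, with a 95% confidence interval of 0.832 to 1.18. Irf4, which is set low in resting B cells and high in plasma cells, was at 136, 142, 160, 132 and 165 CPM in Chat+ and at 144, 142, 137, 185 and 138 CPM in Chat-. The highest Irf4 library was Chat- replicate 4, and without it the Chat- values were 140 ± 3.35 CPM (SD, n = 4), with Chat+ values on both sides of them. The fold difference of Irf4 was 0.986 (95% confidence interval 0.837 to 1.16) with all libraries and 1.04 without that library. For Xbp1 and Irf4 the intervals thus reach from 0.832 to 1.18 of the Chat- level.

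Prdm1, whose product Blimp-1 represses the B cell programme and is needed for secretion, was the least abundant of the 10 genes. It was at 1.45, 1.86, 3.06, 3.22 and 2.48 CPM in Chat+ and at 1.89, 2.31, 1.51, 4.41 and 1.53 CPM in Chat-, which corresponds to 35 to 95 estimated reads per library. The groups overlapped and the highest value was again in Chat- replicate 4. The fold difference was 1.07 with a 95% confidence interval of 0.587 to 1.96, and 1.28 without that library. The interval gives the folds that these values allow, not the smallest fold that the test could have called. Xbp1 lies on chromosome 11 at 5520659 to 5525893, Irf4 on chromosome 13 at 30749226 to 30766976 and Prdm1 on chromosome 10 at 44437177 to 44528501.

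Sdc1 encodes CD138, the heparan sulfate proteoglycan by which plasma cells are recognised on the cell surface. It was at 12.3, 12.5, 13.9, 9.42 and 10.9 CPM in Chat+ and at 12.3, 11.8, 15.3, 9.34 and 12.7 CPM in Chat-. Both the highest and the lowest Sdc1 library were in Chat-, and the fold difference was 0.965 (95% confidence interval 0.727 to 1.28). Ell2, an elongation factor that favours the secreted form of heavy chain mRNA, was at 40.3, 40.2, 43.0, 41.4 and 44.9 CPM in Chat+ and at 35.0, 36.2, 40.0, 47.1 and 38.0 CPM in Chat-. The Chat+ libraries of Ell2 all lay above the other 4 Chat- libraries and below Chat- replicate 4, with a log2 fold change of 0.10 ± 0.11 (SE, limma, adjusted p = 0.999) that became 0.17 ± 0.09 (limma, adjusted p = 0.76) without it. Sdc1 lies on chromosome 12 at 8771323 to 8793715, Ell2 on chromosome 13 at 75706757 to 75772364, Txndc5 on chromosome 13 at 38500079 to 38528824 and Fkbp11 on chromosome 15 at 98724366 to 98728198.

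**Figure D3:**
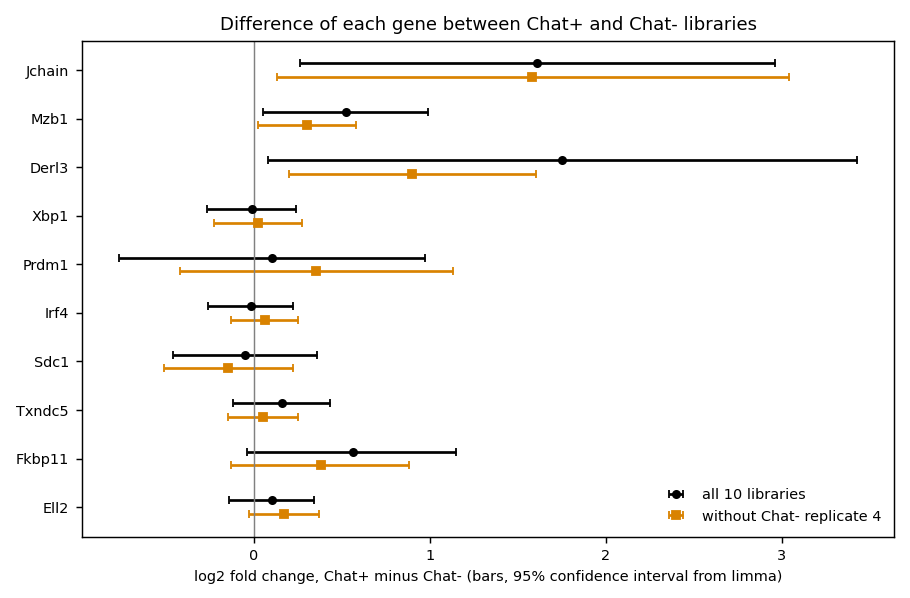
Log2 fold change of each of the 10 genes between Chat+ and Chat- libraries (horizontal axis, positive when higher in Chat+), with 95% confidence intervals from limma, for all 10 libraries (black circles) and without Chat- replicate 4 (orange squares). Without that library the value for Derl3 moves from 1.75 to 0.90 and that for Mzb1 from 0.52 to 0.30, while Jchain stays near 1.6 with a wide interval.

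Divided by exon length, the 10 genes spanned a wide range of levels within these B cells. In Chat+ libraries Mzb1 was highest at 149 ± 19.8 CPM per kb, followed by Txndc5 at 77.6 ± 7.84, Jchain at 38.5 ± 34.0, Irf4 at 30.0 ± 2.98 and Xbp1 at 23.0 ± 3.34 CPM per kb (SD, n = 5). Ell2, Fkbp11, Sdc1 and Derl3 followed at 4.27 to 2.12 CPM per kb, with each one's range over libraries overlapping that of the next, and Prdm1 was last at 0.432 ± 0.136 CPM per kb. Jchain overlapped both of its neighbours, whereas Mzb1 and Txndc5 did not overlap each other. In Chat- libraries the order differed in the place of Jchain, which took the fifth place at 9.02 ± 3.74 CPM per kb, below Xbp1 at 23.1 ± 1.94 without overlap. Sdc1 and Fkbp11 also changed places there, with overlapping ranges.

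Other genes of plasma cells showed no common direction. Of 20 further plasma cell genes fixed as a list, 17 were measured, 8 above and 9 below 0, where 57% of all genes were above. Their median log2 fold change was -0.07, and 0 were called in limma (also 0 at an unadjusted p under 0.05). Tnfrsf17, the survival receptor of plasma cells, was not analysed here. The smallest p values in the list belonged to Creb3l2, a transcription factor of the secretory pathway (17.1 ± 1.96 against 14.1 ± 4.13 CPM), Edem1, which marks misfolded glycoproteins (158 ± 10.1 against 145 ± 6.97 CPM), and Igf1 (1.27 ± 0.375 against 0.769 ± 0.545 CPM, SD, n = 5 each). Creb3l2 was at 15.4 to 20.3 CPM in Chat+, at 21.4 CPM in Chat- replicate 4 and at 11.5 to 12.9 CPM in the other 4 Chat- libraries. Its log2 fold change of 0.31 ± 0.19 became 0.47 ± 0.14 without that library (SE, limma, adjusted p = 0.36). Creb3l2 was then the 1 gene of the list at an unadjusted p under 0.05 (5.88%), near the 5.36% of all genes that were higher. The median of the list was then 0.02, with 9 above and 8 below 0, where 49.6% of all genes were above.

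The ER machinery that serves secretion differed by small amounts. Of 54 measured genes of ER import, folding and quality control, 38 were above and 16 below 0, where 57% of all genes were above. Their median log2 fold change was 0.07 against 0.04 for all genes, and 0 were called in limma. At an unadjusted p under 0.05 (limma) there was 1 higher and 0 lower, where 3.49% of all genes were higher and 1.01% lower. It was Pdia4, a disulfide isomerase, with 296 ± 37.8 against 212 ± 43.6 CPM (SD, n = 5 each). Its log2 fold change was 0.50 ± 0.15 (SE, limma, adjusted p = 0.63). The summed level of the list was 6389 to 7304 CPM in Chat+ and 5706 to 6802 CPM in Chat-, with the lowest value in Chat- replicate 4. Without that library 33 were above and 21 below 0, where 49.6% of all genes were above, and the median was 0.03. Pdia4 then had a log2 fold change of 0.37 ± 0.11 (SE, limma, adjusted p = 0.30). It was still the 1 gene of the list at that unadjusted p (1.85%), where 5.36% of all genes were higher. The ER stress element found in Derl3 also lay in 8 of the 49 promoter windows of these ER genes (16.3%). The 8 genes were Hspa5, Calr, Hsp90b1, Canx, Pdia6, Dnajc3, Creld2 and Syvn1. Of these 6 were above 0, where 57% of all genes were, with a median log2 fold change of 0.10. Hspa5, the main chaperone of the ER that binds free heavy chains, was at 400.3 ± 41.6 against 363 ± 43.7 CPM and did not pass (limma, adjusted p = 0.999). Among 11 measured sensors and effectors of the unfolded protein response 7 were above 0, where 57% of all genes were. Ern1, the gene of Ire1, was at 11.3 ± 3.64 against 13.2 ± 2.13 CPM. At an unadjusted p under 0.05 (limma) there were 0 of these 11. Without Chat- replicate 4, 6 were above 0, where 49.6% of all genes were. There was then 1 at that p, Asns, the gene of asparagine synthetase, where 5.36% of all genes were higher.

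Genes of B cell identity were mostly below 0. The fixed list holds factors opposed to plasma cell fate and also Cd22 and Fcer2a, genes of surface receptors. Pax5, Cd22 and Fcer2a are also in the list of B cell markers, where Fcer2a was the gene counted as lower. The counts of the 2 lists are thus not separate observations. Of its 14 genes, 11 were below and 3 above 0, where 57% of all genes were above. Their median log2 fold change was -0.15, and 0 were called in limma. At an unadjusted p under 0.05 there were 2, both lower in Chat+, where 1.01% of all genes were. When Chat- replicate 4 was left out, 13 of the 14 were below 0 and 2 were lower at that p, where 49.6% of all genes were above 0 and 1.97% lower. Bach2, the repressor of Prdm1, was at 278 ± 35.9 against 338 ± 45.9 CPM (SD, n = 5 each), a log2 fold change of -0.28 ± 0.12 (SE). Its value without Chat- replicate 4 was -0.24 ± 0.12 (SE, limma, unadjusted p = 0.069), so Bach2 was then not 1 of the 2. Fcer2a, the gene of CD23, was at 763 ± 102 against 966 ± 50.3 CPM. Its log2 fold change was -0.35 ± 0.11, and -0.34 ± 0.11 without that library. Partners of Ell2 in elongation and mRNA processing had 8 of 16 genes above 0 and 8 below, where 57% of all genes were above. Of these 0 were called in limma (also 0 at an unadjusted p under 0.05). The smallest p was that of Mllt3 (19.8 ± 4.40 against 15.4 ± 1.73 CPM). Without Chat- replicate 4, 6 were above and 10 below 0, where 49.6% of all genes were above. Mllt3 was then the 1 gene of that list at an unadjusted p under 0.05 (6.25%), near the 5.36% of all genes that were higher.

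**Figure D4:**
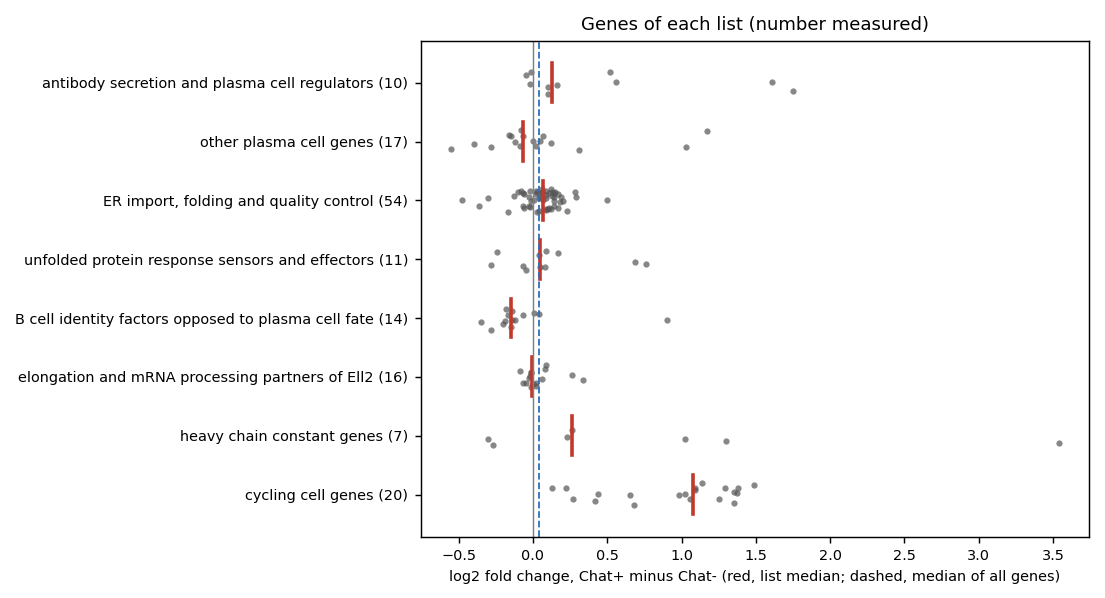
Log2 fold change between Chat+ and Chat- (horizontal axis) of each measured gene in 8 lists, 1 point per gene, with the list median as a red bar and the median of all genes as a dashed line. The antibody secretion genes have a median of 0.13 with 4 genes above 0.5 (2 without Chat- replicate 4, with a median of 0.24), and the cycling genes have a median of 1.08.

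Cycling genes also had higher mean levels in Chat+. Like the other lists, theirs was chosen with earlier results of these data known, so its counts beside those of all genes are descriptions only. All 20 genes of the list were above 0, where 57% of all genes were, and their median log2 fold change was 1.08. At an unadjusted p under 0.05 there were 16, where 3.49% of all genes were higher, though 0 passed over all genes (limma). The groups did not overlap for 5 of the 20, against 1.12% of all genes. Over the other 9 libraries, with Chat- replicate 4 left out, 19 of the 20 were above 0 (49.6% of all genes). Of the 20, 16 were then at that p (5.36% of all genes) and 10 did not overlap (2.35% of all genes). Mki67, the gene of the Ki-67 antigen, was at 111 ± 28.9 against 45.8 ± 8.81 CPM (SD, n = 5 each). In Chat+ replicates 1 to 5 Mki67 was at 142, 120, 124, 105 and 65.4 CPM. Its lowest Chat+ library, replicate 5, was the library with the most Jchain. The summed level was 556 to 942 CPM in Chat+ and 441 to 548 CPM in Chat-. Their part in the values of the antibody secretion genes was not tested.

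Markers of other cells that the sort could hold were compared as well. Over all genes 57% were above 0 in Chat+, the share beside which the counts of each list stand. Plasmacytoid dendritic cells use much of the same secretory machinery, and 7 of their 10 measured markers were below 0 in Chat+. Their defining gene Siglech was at 1.37 ± 0.709 against 4.33 ± 2.14 CPM, and Cox6a2 was at 0 in 4 of the 5 Chat+ libraries. The summed list, which holds genes that B cells also express such as Tcf4 and Ly6d, was at 1101 to 1237 and 1040 to 1253 CPM. Of 12 T and NK cell markers 3 were measured, with summed levels of 0.365 to 2.51 CPM in Chat+ and 1.62 to 4.12 CPM in Chat-. Monocyte and macrophage markers (13 measured, 10 above 0) summed to 140 to 198 CPM in Chat+ and 79.8 to 290 CPM in Chat-, and stromal and endothelial markers (13 measured, 11 above 0) to 292 to 431 and 306 to 588 CPM. The highest value of both lists was in Chat- replicate 4. Neutrophil markers (11 measured, 5 above 0) summed to 21.8 to 137 CPM in Chat+ and 45.5 to 112 CPM in Chat-, and erythroid markers (11 measured, 6 above 0) to 643 to 987 and 565 to 1210 CPM. No gene of these 6 lists passed in limma. At an unadjusted p under 0.05 (limma) 3.49% of all genes were higher and 1.01% lower. In the lists there were 2 lower plasmacytoid dendritic cell markers, 1 lower T and NK cell marker, 1 higher and 1 lower monocyte or macrophage marker, and 0 of the other 3 lists. These counts without Chat- replicate 4 were 7 higher monocyte and macrophage, 6 higher stromal and endothelial and 4 lower plasmacytoid dendritic cell markers (0 of the other 3 lists), where 5.36% of all genes were higher and 1.97% lower. Without that library 49.6% of all genes were above 0. Of the plasmacytoid dendritic cell markers 2 were then above 0 and 8 below. Monocyte and macrophage markers had 11 above, stromal and endothelial 11, neutrophil 5, erythroid 5, and T and NK cell markers 0. Their part in the values of the antibody secretion genes was not tested. In pooled cells, fewer antibody-secreting cells and less RNA per cell cannot be told apart.

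The genes whose levels followed the antibody secretion genes most closely over the 10 libraries were found by Pearson's r of the log2 values, among 9501 protein-coding genes with a mean of at least 5 CPM. These values are descriptions, since all genes share the same libraries and their composition. For Jchain they were Paics, Akr1b3 and Itm2c (r = 0.92, 0.91 and 0.91), each with the same r over 9 libraries without Chat- replicate 4. For Derl3 they were Ddb1, Xlr4c and Gm17018 (r = 0.99, 0.98 and 0.97), which fell to 0.88, 0.87 and 0.78 without that library. For Mzb1 they were Rps12-ps3, Psmd14 and Rpsa (r = 0.98, 0.98 and 0.97). The transcription factors had Slc31a1, Serpinb9 and Ubxn2a beside Xbp1 (r = 0.90, 0.89 and 0.88), Ptp4a1, Tmco1 and Cd48 beside Irf4 (r = 0.97, 0.97 and 0.96) and Socs4, Ubfd1 and Xpo1 beside Prdm1 (r = 0.93, 0.91 and 0.91). Sdc1 had Fuca2, Nipsnap2 and Eps8l1 (r = 0.90, 0.88 and 0.86), Txndc5 had Acbd4, Tmem208 and Slc43a3 (r = 0.97, 0.96 and 0.96), Fkbp11 had Mcee, Tspan31 and Dna2 (r = 0.93, 0.91 and 0.91) and Ell2 had Klhl7, Apool and Sos1 (r = 0.94, 0.93 and 0.93). None of the 30 was another of the 10 genes. Without Chat- replicate 4, 6 of the 30 stayed among the 3 likest genes of their partner.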

How the data were processed

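Total RNA was made into strand-specific libraries for Illumina sequencing, per the labels' protocols. The submitters' processing notes name cutadapt 2.6, Salmon 0.14.2 and the build GRCm38.p6. Neither the annotation nor the step that made the normalized table is stated there. The deposited values are log2 values: all libraries share the lowest value of -3.1228, and with that offset (0.1148 CPM) removed each library sums to 1000000 CPM. Only 35.2% to 48.7% of the values under 3 CPM were multiples of 1 read (within 0.001), so reads could not be recovered and no count model was run.

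limma 3.58.1 in R 4.3.3 was fitted to the deposited log2 values of all 14450 genes (lmFit, eBayes with trend, group as the only term, two-sided, Benjamini-Hochberg), and the script was tested on simulated data. A fold change is taken on log2(CPM + offset), which understates that of a low gene, except that 1 library at 0 (Derl3 in Chat- replicate 4) enlarges it. Alternatives were other offsets (0.5 and 1 CPM), a filter of a mean of 1 CPM, trimmed-mean (TMM) factors or median centring, no trend, library quality weights, the replicate number as a block and each library left out. The 10 genes and all lists were chosen with earlier results of these data known. Named were the 10 genes, Chat, the heavy chain genes, up to 3 genes with the smallest p per list (not all are printed) and the 3 likest genes of each of the 10. Cd79a and Ms4a1 were named outside this rule, for the check of the cell type. Hspa5 and the other genes with an ER stress element were named after their values were seen. Symbols matched 14374 of 14450 identifiers, and coordinates and exon lengths (union of exons) are from GENCODE M21. Python 3.11.15 was used for tables and figures.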

Additional observations from a re-analysis of the deposited data

Results flagged for a closer look

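Single libraries that lay far from the other 4 of their group (Dixon's test at 95%) were found for 13 of 112 groups examined over 56 named genes, where chance flags about 1 in 20 groups, and 8 of the 13 were in Chat- replicate 4. Among the 10 antibody secretion genes these were Derl3 at 0 CPM and Irf4 at 185 CPM, both in Chat- replicate 4. The other 6 in that library were Creb3l2 at 21.4 CPM, Ighd at 3185 CPM, Sparc at 51.9 CPM, and Ighg3, Il7r and Klk1, each at 0 CPM. In Chat+ libraries, Ighd was high in replicate 3 (2755 CPM), Cd22 was low in replicate 5 (866 CPM), Vwf was low in replicate 3 (0.0676 CPM), and Cox6a2 was at 0.0388 CPM in replicate 5 and at 0 in the others. Pax5 was high in Chat- replicate 1 at 1430 CPM.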

How the results depend on the processing

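None of the 10 genes passed under any of the 18 alternatives, and 167 of their 180 values kept direction and side of the threshold. The 13 that changed direction were those of 4 genes with differences near 0. Leaving out 1 library at a time gave log2 fold changes of -0.06 to 0.05 for Xbp1, -0.06 to 0.06 for Irf4, -0.01 to 0.35 for Prdm1 and -0.15 to 0.03 for Sdc1, and library quality weights gave 0.03 for Xbp1. The same ranges were 1.18 to 2.13 for Jchain, 0.90 to 1.99 for Derl3, 0.30 to 0.63 for Mzb1 and 0.38 to 0.71 for Fkbp11. The lowest adjusted p of any of the 10 was that of Jchain with quality weights (limma, 0.19).

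Over all genes, 1 passed. The count was 3 without the mean-variance trend, 105 with library quality weights, and 1 to 6 with 1 library left out (6 without Chat+ replicate 5 or Chat- replicate 4, 2 without Chat- replicate 1 or 3). The cause was not tested. Without Chat- replicate 4 the list medians changed sign for other plasma cell genes (-0.07 to 0.02) and erythroid markers (0.02 to -0.02), an alternative chosen after seeing the data. Among the lists, leaving out 1 library gave 0 to 1 called heavy chain genes and 0 to 5 called cycling genes (5 without Chat+ replicate 5).

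The fit with a replicate block called 6 genes. Same-numbered libraries correlated at -0.21 to 0.26 in their deviations, and 3 of 5 Chat+ libraries were most like the Chat- library of their own number. These values do not settle whether equal numbers are pairs. The labels do not state it, so the numbers were not taken as pairs. Jchain ranked the numbers alike in both groups (3, 4, 1, 2, 5), seen after the test, and had a log2 fold change of 1.61 ± 0.32 (SE, limma, adjusted p = 0.34) in that fit. Counting error did not exceed 16.9% (Prdm1 at 35 reads, its lowest library) in any library above 0, less than the spread of Prdm1 between libraries (31.5% and 51.8% of the mean).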
